A study of Mus musculus with 8 samples.

Results

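The acyl-CoA thioesterases described here are 10 genes, Acot1, Acot2, Acot3, Acot4, Acot7, Acot8, Acot9, Acot11, Acot12 and Acot13, taken by their names from a table of 35275 genes measured in mouse kidney. They were chosen with the differences between the genotypes in these same 8 mice in view, so those differences are given as a description. No p is given for a member, and the counts past a threshold support nothing here. Poly-A RNA of the whole left kidney was sequenced from 4 mice homozygous for the C1qtnf1tm1Lex allele (Ctrp1-/-, here KO) and 4 wild-type littermates (WT). C1qtnf1 encodes CTRP1, a secreted protein related to adiponectin. The allele was made in 129S5 embryonic stem cells, lacks 679 bases that hold the coding part of exon 4 and 162 bases of the 3' UTR, and was bred for more than 6 generations onto C57BL/6J. All 8 mice were males of 40 weeks from heterozygous intercrosses, and from 6 weeks of age all had been on a high-fat diet that drew 60% of its energy from fat, so no group shows the kidney on a standard diet. The deletion is in the germline, so every cell of a KO mouse carried it.

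Acyl-CoA thioesterases split an acyl-CoA into a free fatty acid and coenzyme A, the reverse of what the acyl-CoA synthetases do. Each compartment that oxidises fatty acids has its own forms, which set how much activated fatty acid and how much free coenzyme A it holds. Unrelated protein folds, those of the type I and the type II family, carry this activity. In mice the type I genes lie side by side on chromosome 12, and several are known targets of the nuclear receptor PPAR-alpha in liver and heart. The kidney, above all its proximal tubule, draws much of its energy from fatty acid oxidation.

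The 8 libraries held 17884140 to 20344859 reads. All values are FPKM, in which fragments are set against the length of the gene and the depth of the library. C1qtnf1 measured 5.27 to 5.55 FPKM in the WT mice against 0.322 to 0.883 FPKM in the KO mice, so every library matched its label. The tissue matched as well, with all 12 listed proximal tubule markers measured and their summed level at 7157 to 8883 FPKM in WT and 7499 to 8303 in KO. KO replicate 2 stood apart. Its FPKM total was 525275, against 437496 to 450339 in the other libraries. Against the other 3 KO mice, its genes with a fitted length under 1000 bases were higher by a median of 0.50 on the log2 scale and those of 3000 bases and over differed by -0.22. Its mean proximal tubule marker level was -0.38 on the log2 scale relative to WT, against -0.11 to -0.03 in the other KO mice, while its markers of the S3 segment, the last part of the proximal tubule, summed to 421 FPKM, the highest of the 8 mice (318 to 397 FPKM in WT). Its endothelial markers summed to 47.1 FPKM, against 86.5 to 92.3 FPKM in the other 7 mice. This mouse also had the lowest sums for the distal convoluted tubule (342.5 against 552.8 to 638.3 FPKM) and podocyte (85.7 against 115.6 to 129.3). The same held for the thick ascending limb (1040 against 1308 to 1574 FPKM). Its sums for collecting duct principal cell (475.1 FPKM) and liver markers (1279 FPKM) were instead the highest of the 8 mice. Urothelial markers summed to 4.04 to 10.3 FPKM in WT and 14.9 to 34.7 in KO, with all 8 in the table and Upk1b and Krt20 below 1 FPKM on average. None of the urothelial markers was at 0 in all mice, and their part in the values below was not tested. In whole kidney, fewer cells of a type and less RNA per cell cannot be told apart. What part the shift with gene length has in the marker sums of KO replicate 2 was not tested.

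The type I genes Acot2, Acot1, Acot4, Acot3 and the further genes Acot5 and Acot6 follow each other on the plus strand of chromosome 12, within 123.5 kb from 83987861 to 84111349 (mm10). The 250 bases before the RefSeq start of the 4 members of the cluster are printed. They were picked because these 4 genes had the most negative fold changes of the 10 members. Capitals mark CCAAT, and in Acot4 also AGGTCA, the half-site that nuclear receptors such as PPAR-alpha bind, both searched on either strand. All are from GRCm38.p6 and read along the plus strand.
Acot2, chr12:83987611-83987860: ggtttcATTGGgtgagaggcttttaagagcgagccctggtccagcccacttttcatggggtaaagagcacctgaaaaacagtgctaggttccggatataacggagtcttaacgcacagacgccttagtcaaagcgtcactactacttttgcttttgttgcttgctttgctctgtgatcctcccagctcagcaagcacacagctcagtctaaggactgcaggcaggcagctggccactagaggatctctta
Acot1, chr12:84009252-84009501: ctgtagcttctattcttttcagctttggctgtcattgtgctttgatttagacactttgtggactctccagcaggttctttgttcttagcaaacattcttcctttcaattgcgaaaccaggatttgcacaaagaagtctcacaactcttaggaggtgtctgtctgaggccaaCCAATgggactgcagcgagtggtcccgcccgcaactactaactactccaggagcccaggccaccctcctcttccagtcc
Acot4, chr12:84038129-84038378: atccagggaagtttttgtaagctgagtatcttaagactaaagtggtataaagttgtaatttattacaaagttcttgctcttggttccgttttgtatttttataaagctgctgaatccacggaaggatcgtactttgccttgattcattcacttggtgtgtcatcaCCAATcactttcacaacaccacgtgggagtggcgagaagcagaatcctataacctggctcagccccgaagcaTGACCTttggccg
Acot3, chr12:84051894-84052143: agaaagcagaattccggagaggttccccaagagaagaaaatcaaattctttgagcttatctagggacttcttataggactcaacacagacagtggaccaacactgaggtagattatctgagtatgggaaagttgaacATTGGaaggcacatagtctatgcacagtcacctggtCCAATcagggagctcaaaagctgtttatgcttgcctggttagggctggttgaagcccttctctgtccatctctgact

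A CCAAT on the gene's strand began 79 bases before the start of Acot1, 85 before that of Acot4 and 77 before that of Acot3. Acot2 held it only on the opposite strand, 244 bases before its start. CCAAT was also frequent elsewhere, in 34.5% of 27025 promoter windows of this length, and 7 of the 9 members in the RefSeq table had it. The half-site AGGTCA occurred in 13.8% of all windows and in those of Acot4 and Acot12. In Acot4 it lay on the opposite strand, 13 bases before the start, as part of AAAGGTCA, which 1.31% of windows held. The full repeat AGGTCANAGGTCA was in 10 of 27025 windows and in none of the 9 members. These matches describe letters, not binding.

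Among the peroxisomal members, Acot3, a thioesterase of long-chain acyl-CoA, differed most between the genotypes. Acot3 (chromosome 12, 84052144 to 84060402) was at 8.14, 9.18, 7.50 and 7.41 FPKM in WT replicates 1 to 4 and at 3.84, 4.09, 5.42 and 4.73 FPKM in KO replicates 1 to 4. Every KO mouse lay below every WT mouse, and the gap between the groups was wider than either group's range. The means were 8.06 ± 0.815 and 4.52 ± 0.708 FPKM (SD, n = 4 each), so the KO mean was 0.561 of the WT mean. The log2 fold change, a difference of log2 of scaled FPKM plus 1, was -0.70 ± 0.11 (SE). The gene had 178 to 441 reads per library. The coefficient of variation among mice was 10.1% in WT and 15.7% in KO, and counting error alone amounts to 4.95% and 6.75%.

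Acot4, known as a succinyl-CoA thioesterase in mouse peroxisomes, lies 13.8 kb from Acot3 (84038379 to 84048601). It was at 18.1, 17.8, 15.0 and 14.0 FPKM in the WT mice and at 14.0, 11.7, 14.8 and 14.5 FPKM in the KO mice. The groups overlapped. Its log2 fold change was -0.20 ± 0.10 (SE). The ratio of Acot3 to Acot4 within a mouse, which no scaling of the library can move, was 0.449 to 0.529 in WT and 0.274 to 0.366 in KO. Acot3 was thus lower relative to Acot4 in each of the 4 KO mice than in any WT mouse. The ratio restates the values by which the members were chosen, so it is a description only.

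Acot8, the type II thioesterase of peroxisomes with a broad range of acyl-CoA substrates, lies on chromosome 2 (164792765 to 164804882). It was at 17.5, 19.3, 16.8 and 19.7 FPKM in WT and 20.5, 18.9, 19.5 and 18.4 FPKM in KO. The groups overlapped and the means were 18.3 ± 1.39 and 19.3 ± 0.893 FPKM. On the log2 scale the difference was 0.09 ± 0.09 (SE). The ratio of Acot3 to Acot8 was 0.441 ± 0.0451 in WT and 0.235 ± 0.0408 in KO (SD, n = 4 each).

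**Figure D1:**
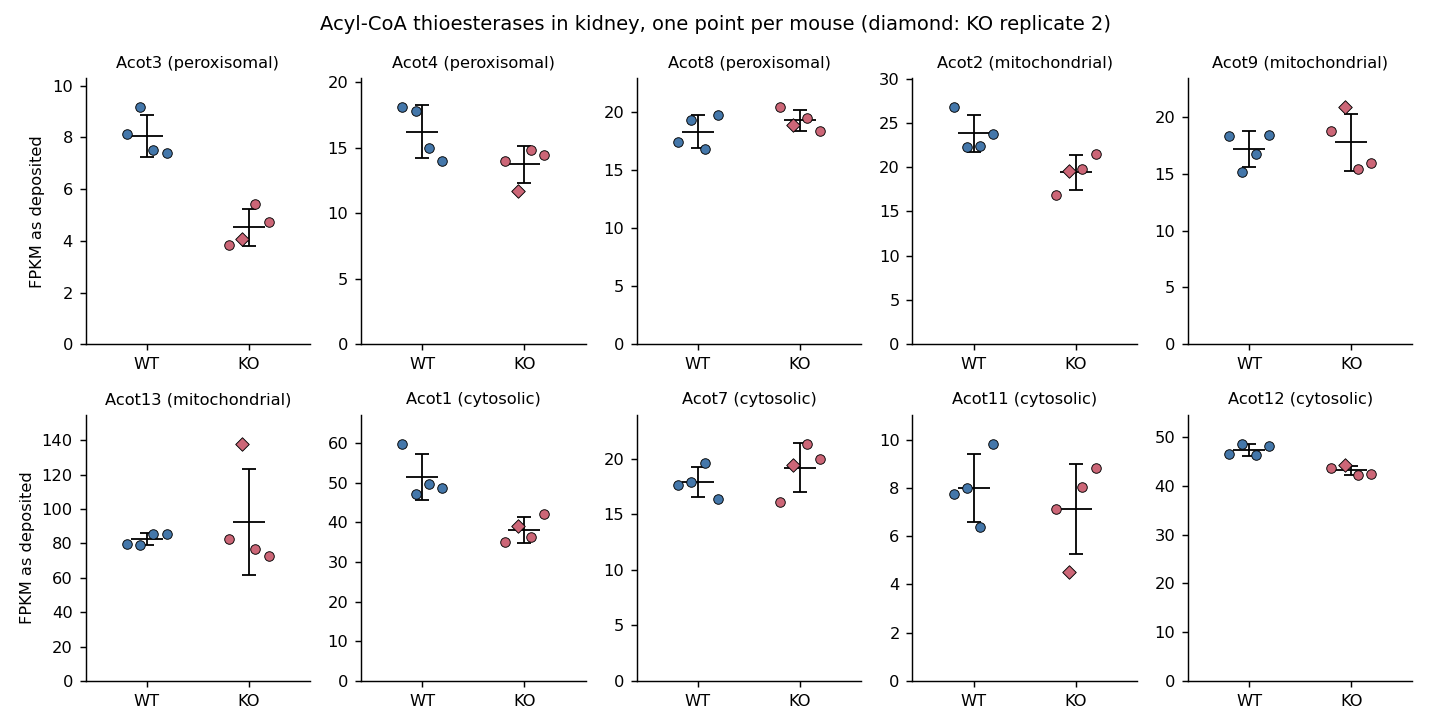
Deposited FPKM (y axes from 0, one scale per gene) of the 10 acyl-CoA thioesterases in WT and KO kidneys, one point per mouse, with bars for the mean and SD of 4 mice. Acot3 in KO lay between 3.84 and 5.42 FPKM, below all WT mice, while Acot13 was at 138 FPKM in KO replicate 2, drawn as a diamond.

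The cytosolic forms held the second largest difference of the family, in Acot1. Acot1 (chromosome 12, 84009490 to 84018371), the cytosolic long-chain thioesterase, was at 59.9, 47.2, 49.7 and 48.7 FPKM in the WT mice, against 35.0, 39.1, 36.3 and 42.2 FPKM in KO. All KO mice lay below all WT mice, and WT replicate 1 was the highest. The means were 51.4 ± 5.77 and 38.1 ± 3.19 FPKM, and the KO mean was 0.742 of the WT mean. The log2 fold change was -0.40 ± 0.10 (SE). At 976 to 1894 reads per library, counting error alone amounts to 2.52% in WT and 3.00% in KO, beside coefficients of variation among mice of 11.2% and 8.37%.

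The other cytosolic forms are type II proteins. Acot12 (chromosome 13, 91741512 to 91786148), a cytosolic acetyl-CoA hydrolase with a lipid-binding START domain, was the least variable member. It was at 46.5, 48.7, 46.3 and 48.3 FPKM in the WT mice, against 43.6, 44.3, 42.3 and 42.5 FPKM in KO. As deposited the groups did not overlap, but after library scaling they did, with KO replicate 2 at 47.4 scaled FPKM and WT replicate 1 at 44.2. This gave a log2 fold change of -0.11 ± 0.08 (SE).

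Acot7 (chromosome 4, 152178134 to 152271855), best known as the thioesterase of brain with arachidonoyl-CoA as a substrate, was at 17.6, 17.9, 19.6 and 16.4 FPKM in the WT mice, against 16.1, 19.4, 21.3 and 19.9 FPKM in KO. Acot11 (chromosome 4, 106744555 to 106804998), another START domain thioesterase, first found in brown fat, was at 7.75, 8.02, 6.38 and 9.84 FPKM in the WT mice, against 7.13, 4.51, 8.02 and 8.81 FPKM in KO. Both genes overlapped between the genotypes. The log2 fold change was 0.11 ± 0.11 (SE) for Acot7 and -0.15 ± 0.17 (SE) for Acot11. The latter was 0.00 without KO replicate 2, the mouse at 4.51 FPKM. The fitted length of Acot11 was 5689 bases, in the length class where that library differed by a median of -0.22. What part length has in the value of that mouse was not tested.

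Of the mitochondrial forms, Acot2, the matrix relative of Acot1, was lower in every KO mouse. Acot2 (chromosome 12, 83987861 to 83993873) was at 26.8, 22.2, 22.4 and 23.8 FPKM in the WT mice, against 16.8, 19.5, 19.8 and 21.5 FPKM in KO. The highest KO mouse lay just under the lowest WT mouse. The means were 23.8 ± 2.11 and 19.4 ± 1.93 FPKM and the log2 fold change was -0.26 ± 0.10 (SE). The ratio of Acot1 to Acot2 was 2.05 to 2.23 in WT and 1.83 to 2.08 in KO, so the ratios of the 2 groups overlapped.

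Acot9 (chromosome X, 155262443 to 155297654), a type II mitochondrial thioesterase, was at 18.4, 15.2, 16.8 and 18.5 FPKM in the WT mice, against 18.8, 20.9, 15.5 and 16.0 FPKM in KO. The groups overlapped. Its log2 fold change was 0.06 ± 0.12 (SE), and -0.05 without KO replicate 2. Acot13 (chromosome 13, 24817948 to 24831540), the small hotdog-fold protein also called Them2 that is found at mitochondria, was at 79.8, 79.2, 85.6 and 85.6 FPKM in the WT mice, against 82.7, 138, 76.8 and 72.5 FPKM in KO. KO replicate 2 alone was high. The log2 fold change of Acot13 was 0.13 ± 0.20 (SE) with that mouse and -0.10 without it. Its fitted length was 721 bases, in the length class where that library was higher by a median of 0.50, and Acot13 itself was higher there by 0.94 on the log2 scale. What part length has in this value was not tested.

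**Figure D2:**
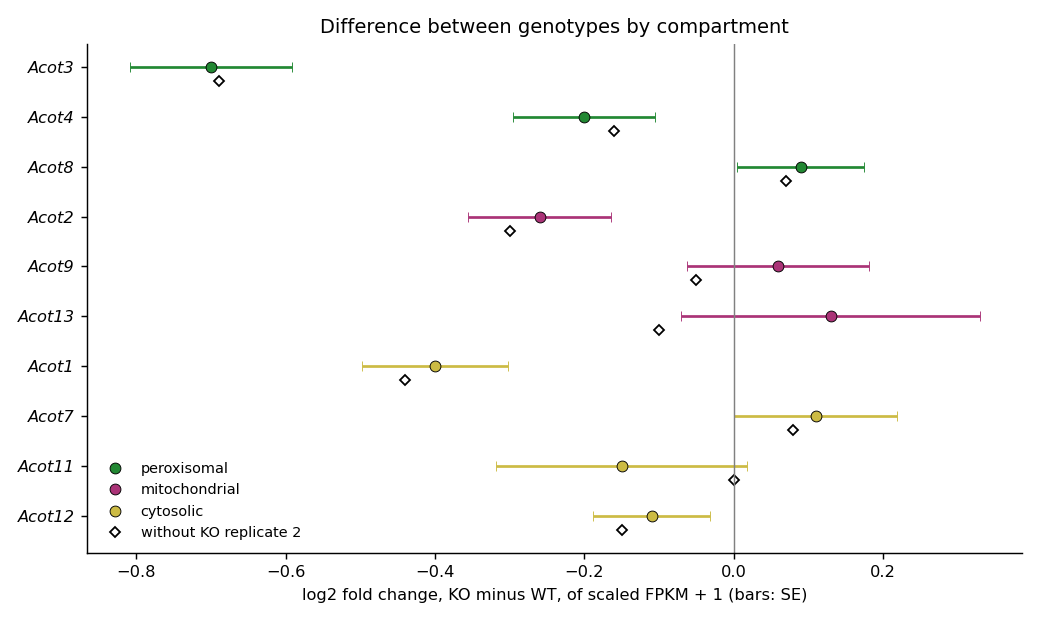
Log2 fold change (KO minus WT, x axis, of scaled FPKM plus 1) of each member, coloured by compartment, with SE bars, and as open diamonds the value without KO replicate 2. Acot3 (-0.70), Acot1 (-0.40), Acot2 (-0.26) and Acot4 (-0.20) were the most negative, and the values of Acot9 and Acot13 turned sign without that mouse.

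All 10 members passed the filter of a mean of 1 FPKM. By limma with Benjamini-Hochberg adjustment over 12118 genes, 0 of the 10 passed at 0.05, where 0.0248% of all genes passed lower in KO and 0.0165% higher. At an unadjusted p under 0.05 there were 3, all lower, beside 2.47% of all genes lower at that level. limma-voom on recovered reads also passed 0 of the 10. In 3 members the scaled values of the groups did not overlap, each time lower in KO, beside 2.83% of all genes. The members were chosen on this contrast, so nothing is read from these shares. With array weights, which gave KO replicate 2 a weight of 0.10, Acot3 and Acot1 passed (0.239% of all genes lower). Without KO replicate 2 Acot3 passed (0.099% lower), and likewise without KO replicate 3 (0.033% lower). The median log2 fold change of the members was -0.13, beside -0.01 over all genes tested.

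Compartment by compartment, the summed level of the 4 cytosolic genes was lower in KO and that of the 3 peroxisomal genes less clearly so. That of the 3 mitochondrial genes depended on 1 mouse. This order holds for sums, in which abundant genes weigh most. By the mean of log2(FPKM plus 1) over the members, KO minus WT was -0.27 for peroxisomal, -0.14 for cytosolic and -0.02 for mitochondrial forms. The order of the compartments therefore depends on the measure. The cytosolic sum was 132, 122, 122 and 123 FPKM in WT and 102, 107, 108 and 113 FPKM in KO, without overlap. Most of this difference lay in Acot1, whose mean was lower by 13.3 FPKM out of a total difference of 17.1 FPKM. The peroxisomal sum was 43.7, 46.2, 39.3 and 41.2 FPKM in WT and 38.3, 34.7, 39.7 and 37.6 FPKM in KO. These overlapped as deposited, by KO replicate 3 and WT replicate 3, and did not after library scaling. The mitochondrial sum was 117 to 128 FPKM in WT, while KO replicate 2 was at 178 FPKM and the other KO mice at 110 to 118. Its log2 ratio of KO to WT was 0.10, and -0.13 without KO replicate 2. Acot13 made up most of that sum in every mouse.

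**Figure D3:**
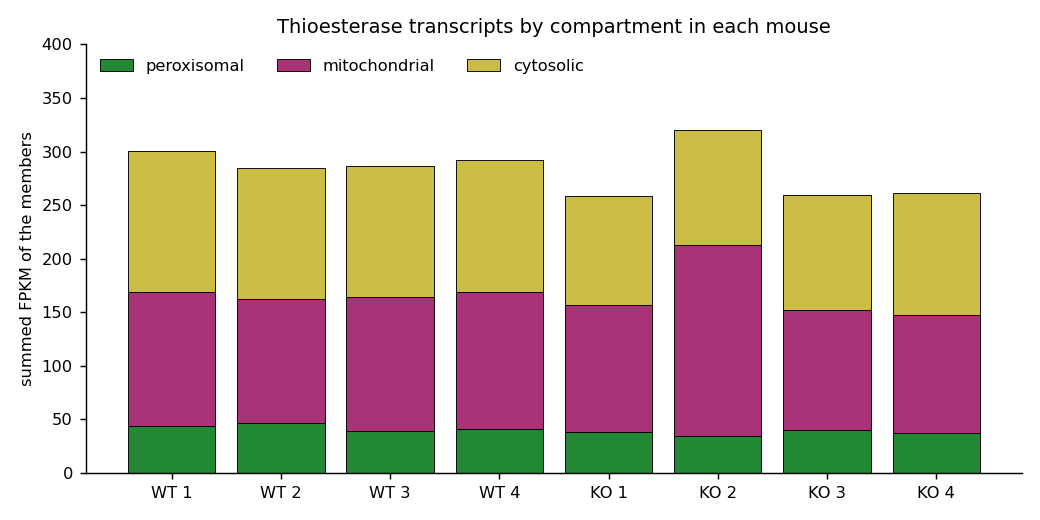
Summed deposited FPKM (y axis) of the peroxisomal, mitochondrial and cytosolic members in each of the 8 mice. The cytosolic part was 122 to 132 FPKM in WT and 102 to 113 in KO, and the mitochondrial part of KO replicate 2 reached 178 FPKM.

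The order of the levels was read from the 4 WT mice, since FPKM is a level per length. Acot13 led at 82.5 ± 3.54 FPKM, above Acot1 at 51.4 and Acot12 at 47.5, whose ranges overlapped. Acot2 followed at 23.8. Acot8, Acot7, Acot9 and Acot4, at 18.3, 17.9, 17.2 and 16.2 FPKM, could not be ordered, since each range overlapped the next. Acot3 at 8.06 and Acot11 at 8.00 FPKM were the lowest and overlapped each other. The members that differed most between the genotypes stood at opposite ends of the order, Acot1 second and Acot3 ninth. Of the 10 fitted lengths, 7 equalled that of a GENCODE M21 transcript. Those of Acot1, Acot3 and Acot4 did not, which bears on their place in the order. It also bears on their fold changes through the pseudocount, the 1 added to scaled FPKM. With a pseudocount of 0.1 the log2 fold change was -0.81 for Acot3, -0.41 for Acot1 and -0.21 for Acot4, against -0.70, -0.40 and -0.20.

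Set out by position, all 4 members on chromosome 12, which belong to 3 compartments, had negative fold changes, from -0.70 to -0.20. Of the 6 members elsewhere 2 were negative, Acot11 and Acot12. The members were set out in this way after their values were seen, so nothing is read from these counts. The cluster's remaining expressed gene, Acot6, a thioesterase of peroxisomes that is no member, was at 5.66, 4.92, 5.04 and 5.48 FPKM in WT and 4.42, 3.82, 4.13 and 4.70 FPKM in KO. Its groups did not overlap, and the log2 difference came to -0.24 ± 0.08 (SE, limma adjusted p = 0.71). Acot5 was barely measured, with 13 reads over the WT mice and 12 over the KO mice. Of 18 other tested genes lying at least in part within 500 kb of the cluster, chosen after their values were seen, 12 had negative and 6 positive fold changes, beside 52.8% negative over all genes tested, with a median of -0.11. They ranged from -0.35, a predicted gene antisense to Acot3 and Acot4, to 0.18. Among them 3 did not overlap between the groups, all lower, beside 2.83% of all genes, and 0 passed by limma. As these genes were picked with their values in view, nothing is read from their counts.

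**Figure D4:**
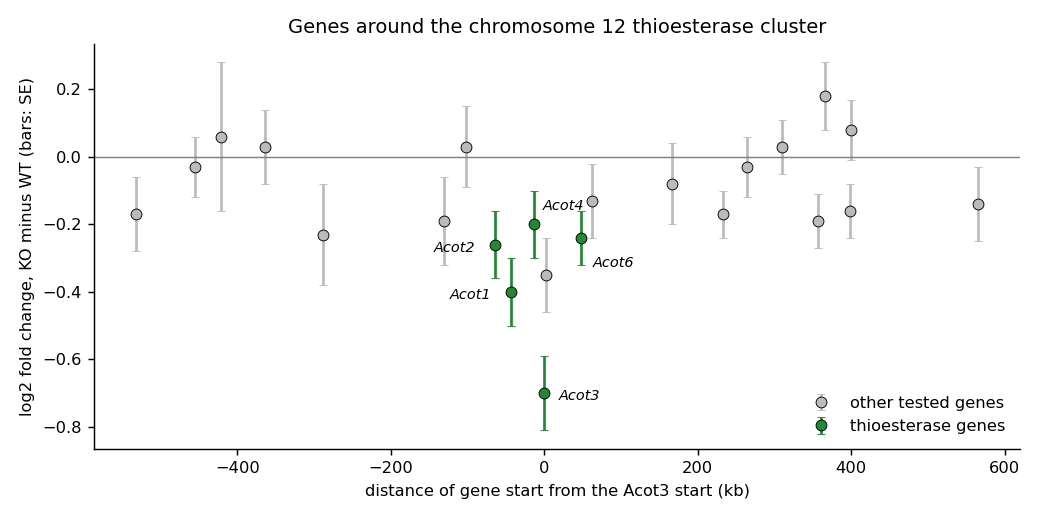
Log2 fold change (KO minus WT, y axis, SE bars) of tested genes within 500 kb of the chromosome 12 cluster, against the distance of their start from that of Acot3 in kb (x axis). The 5 thioesterase genes, in green, lay between -0.70 and -0.20, and the 18 others, in grey, between -0.35 and 0.18.

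Reads of close relatives can be miscounted, and how reads that fit several genes were treated is not given in the sources used here. Of the stretches of 100 bases in Acot2 transcripts, 17.1% also occur in Acot1, and 9.32% of those in Acot1 occur in Acot2. Acot3 shared 3.00% with Acot1 and 9.53% with a predicted read-through gene that spans Acot4 and Acot3. Acot4 shared 0.336% in all. For Acot7, Acot8, Acot11, Acot12 and Acot13 the share was 0%. Acot3 and Acot4 also share exon bases with a predicted gene on the opposite strand, and Acot8, Acot11 and Acot12 with Snx21, Fam151a and a predicted gene. Whether counting used strand is not given, so reads of these overlaps are uncertain.

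Among mice of one genotype the members did not vary as one group. With group means removed, Acot1 and Acot2 went together most closely, with Pearson r of 0.87 over 8 mice, and 0.85 over the 7 without KO replicate 2. These are the pair that share the most sequence, and what part that has in their r was not tested. Without KO replicate 2 other pairs also had values of this size, in either direction. Acot8 and Acot12 had 0.84 (0.71 over 8 mice), Acot3 and Acot9 -0.93 (-0.66) and Acot1 and Acot8 -0.83 (-0.61). Acot3 and Acot4 had an r of 0.59, while Acot3 and Acot1 had an r of -0.05. Acot13 went with Acot9 (0.85) and Acot12 (0.85), which dropped to 0.55 and 0.58 without KO replicate 2. These are descriptions over 8 mice that share library depth and scaling. The mean of the proximal tubule markers had an r of 0.30 with Acot3, -0.64 with Acot1 and -0.44 with Acot2 by the same measure. It had -0.75 with Acot9, -0.68 with Acot13 and 0.62 with Acot11, so values of this size were not particular to Acot1 and Acot2. KO replicate 2 had the lowest mean of these markers, and no r without that mouse is given for them.

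**Figure D5:**
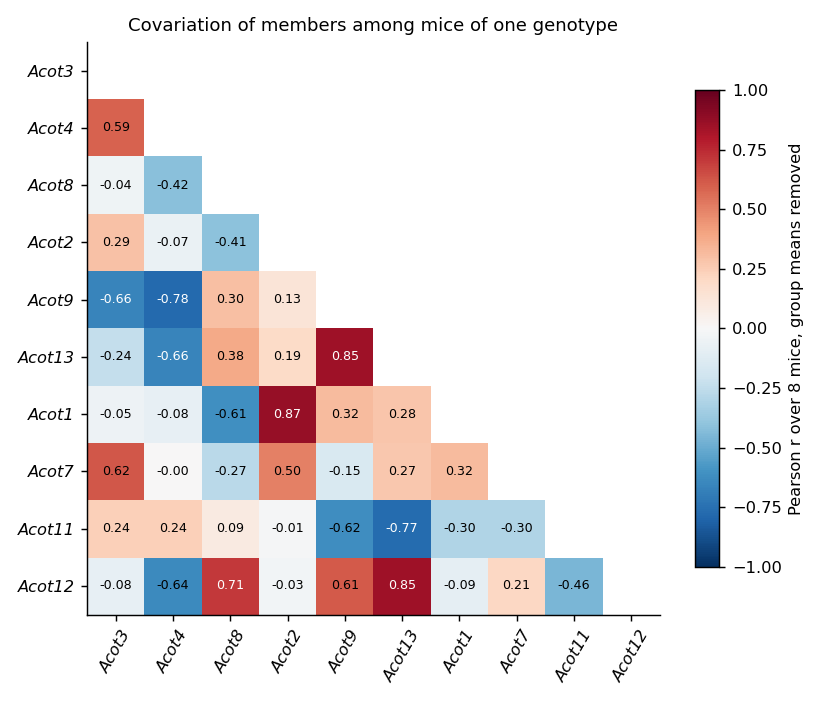
Pearson r between members over 8 mice after each group's mean was removed, from -1 (blue) to 1 (red). Acot1 and Acot2 reached 0.87, and Acot13 reached 0.85 with both Acot9 and Acot12.

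With group means kept in, the genes most like Acot3 over the 8 mice were Fmo4, a flavin monooxygenase (r = 0.953), Dmgdh, the mitochondrial dimethylglycine dehydrogenase (0.951), Epm2a, the glycogen phosphatase laforin (0.934), Hacl1, the peroxisomal lyase of fatty acid alpha-oxidation (0.930), and Slc7a9, an amino acid transporter of the proximal tubule (0.927). Each was lower in KO without overlap in scaled FPKM, beside 2.83% of all genes. Choosing by r with group means kept in favours genes that differ between the groups as Acot3 does, so nothing is read from this. With group means removed their r with Acot3 was 0.43 to 0.72. For Fmo4 the WT mean was 13.9 ± 0.422 FPKM and the KO mean 10.6 ± 0.483. The genes most like Acot2 were Slc38a3, the glutamine transporter SNAT3 (r = 0.984), Abcb1b, a drug efflux pump (0.981), and Kynu, kynureninase (0.955). Those most like Acot1 were Stam2, an endosomal sorting protein (0.958), Cyp4a14 (0.943) and Slc38a3 (0.942). The WT mean of Slc38a3 was 17.0 ± 1.76 FPKM, its KO mean 11.9 ± 1.94, and its r with Acot2 was 0.97 with group means removed. The lists for Acot3 and for Acot1 and Acot2 had no gene in common.

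The pathways around the thioesterases were taken from lists of genes that are no members. These lists were chosen with earlier results of these data known, so nothing is read from their counts. Of 97 tested genes in 7 lists, 2 passed by limma, both lower and both in the PPAR-alpha list, beside 0.0248% of all genes lower. Among them Cyp4a14, a fatty acid omega-hydroxylase, was at 47.1, 25.7, 39.8 and 38.3 FPKM in the WT mice, against 7.53, 11.8, 5.48 and 8.49 FPKM in the KO mice, without overlap. It fell by 2.04 on the log2 scale (limma adjusted p = 0.0091). In the PPAR-alpha list 20 of 22 tested genes did not pass. The fold changes of 17 of the 22 were negative, beside 52.8% of all genes tested, and the median was -0.13. Cyp4a14 lost its call when WT replicate 1, 3 or 4 or KO replicate 1 was left out. The count of 2 became 0 without WT replicate 1 or WT replicate 3, and 1 without WT replicate 4 or KO replicate 1. Without KO replicate 2, 5 genes of the lists passed, all lower, beside 0.099% of all genes lower.

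Peroxisomal beta-oxidation shortens the chains whose acyl-CoA the peroxisomal thioesterases cut. The list also holds Hacl1 and Phyh, enzymes of the alpha-oxidation that precedes it for branched chains. Of its 17 tested genes 0 passed by limma and voom passed 0. At an unadjusted p under 0.05, 2 were lower, beside 2.47% of all genes. The fold changes of 14 were negative, where 52.8% of all genes tested were, and the median was -0.09. Hacl1 averaged 17.1 ± 1.00 FPKM in WT mice against 11.9 ± 1.46 in KO mice (difference of -0.48 ± 0.09 SE in log2, limma adjusted p = 0.16), without overlap, and it passed without KO replicate 2. Acaa1b, a peroxisomal thiolase, was at 212 ± 14.2 and 169.9 ± 20.9 FPKM (limma adjusted p = 0.75). The 15 peroxisome assembly genes had a median of -0.07, with 10 negative and 0 passing by limma or voom. At an unadjusted p under 0.05, 1 was lower, beside the same 2.47% of all genes. Pex14, a docking protein of the import machinery, was at 6.55 ± 0.682 and 7.67 ± 0.949 FPKM (limma adjusted p = 0.86).

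Acyl-CoA synthetases run the reaction that thioesterases reverse. Of 16 tested, 0 passed by limma or voom, and the median was -0.05. At an unadjusted p under 0.05, 4 were lower, beside 2.47% of all genes, and 1 was higher. The share of all genes higher at that level is not given here. Acsl1, the long-chain synthetase, was at 45.9, 39.3, 34.5 and 38.8 FPKM in the WT mice, against 33.0, 22.2, 31.7 and 27.5 FPKM in KO, without overlap (log2 fold change -0.44 ± 0.11 SE, limma adjusted p = 0.42). Acsm3, a medium-chain synthetase, was at 19.4 ± 4.08 and 27.3 ± 6.74 FPKM (limma adjusted p = 0.80). The Acsl1 means were thus ordered as those of Acot1 and Acot3, and the difference did not pass the threshold. Of the 9 tested genes of the carnitine shuttle 0 passed by limma or voom, and the median was -0.12. At an unadjusted p under 0.05, 2 were lower, beside 2.47% of all genes. Slc25a20, the carnitine carrier, was at 36.9 ± 2.90 and 29.4 ± 3.00 FPKM (limma adjusted p = 0.75), and Cpt1a at 162 ± 10.5 and 131 ± 25.1 FPKM (limma adjusted p = 0.81). Of the 17 genes of mitochondrial beta-oxidation 0 passed by limma or voom, and 2 were lower at an unadjusted p under 0.05, beside 2.47% of all genes. The fold changes of 14 were negative, beside 52.8% of all genes tested, and the median was -0.12. Acaa2, a thiolase, was at 224 ± 6.69 and 191 ± 15.1 FPKM (limma adjusted p = 0.82) and Acadvl, the very long chain dehydrogenase, at 104 ± 2.11 and 88.0 ± 14.5 FPKM (limma adjusted p = 0.82).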

How the data were processed

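The table deposited by the authors states no unit. Its 8 columns, 1 for each mouse, were read as FPKM, since their steps fit whole reads (tolerance 0.002 reads) for all 22945 genes above 0 once library totals and gene lengths were fitted. The tools named per the submitters' processing notes are STAR 2.5, HTSeq 0.6.1, CASAVA and DESeq2, and the build is mm10. Annotation, filters and strand settings: not given in the sources used here. No column belonged to other samples. Recovered reads made up 99.92% to 99.95% of the totals.

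Levels are deposited FPKM, as mean ± SD. Fold changes come from limma 3.58.1 (R 4.3.3, trend and robust, statmod 1.5.0) on log2(FPKM divided by a factor, plus a pseudocount of 1), over 12118 genes with a mean of at least 1 FPKM, with Benjamini-Hochberg adjustment at 0.05. They understate the change of low genes. Factors (0.9357 to 1.0516) were trimmed means of M values, trimming 0.3 of log ratios and 0.05 of levels. Counting errors are those of a Poisson count and cover counting only. The fit was tested on simulated data. No label pairs the mice. Groups came from the genotype labels and replicate numbers only name mice.

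Members and lists were chosen with earlier results of these data known. Named genes were the members, C1qtnf1, the passing genes of each list or else the 2 of lowest p, and the genes with the highest r with Acot3 (5), Acot2 and Acot1 (3 each) among those with a usual symbol; a few genes under this rule are not reported here. Promoters came from RefSeq (GRCm38.p6, 9 of 10 members). Planned protein comparisons were not run, as no protein table was used here. Alternatives were a pseudocount of 0.1, other filters and scalings, limma-voom, array weights and leaving out each mouse.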

Additional observations from a re-analysis of the deposited data

Results flagged for a closer look

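In 56 groups of 4 mice, 4 had a highest or lowest mouse far from the other 3 relative to the group's range (Dixon's criterion at 95%). Chance marks about 1 group in 20. Acot13 was at 138 FPKM in KO replicate 2 and at 72.5 to 82.7 FPKM in the other KO mice. The summed mitochondrial members followed it, at 178.4 FPKM in that mouse and 110 to 118 in the others. Hacl1 was lowest in the same mouse, at 9.73 FPKM against 12.5 to 12.8. The summed cytosolic members were highest in WT replicate 1, at 131.8 FPKM against 122 to 123 in the other WT mice.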

How the results depend on the processing

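The members passing numbered 0 in the fit described (0.0248% of all genes lower) and in 6 of the 7 alternatives that kept all mice. With array weights 2 passed (Acot3 and Acot1), beside 0.239% of all genes lower. When each mouse was left out 0 to 1 passed. Acot3 did so without KO replicate 2 (0.099% of all genes lower) and without KO replicate 3 (0.033%). The members were chosen on this contrast, so nothing is read from these counts. Over 13 alternatives the log2 fold change of Acot3 lay from -0.82 to -0.63, of Acot1 from -0.44 to -0.34, of Acot2 from -0.30 to -0.19 and of Acot4 from -0.26 to -0.13, while Acot9 (-0.05 to 0.13) and Acot13 (-0.10 to 0.24) turned sign with array weights and without KO replicate 2. The 2 passing genes of the lists became 5 with array weights and 0 to 5 when each mouse was left out. The summed peroxisomal members had a log2 ratio of -0.16, and -0.27 as the mean of log2 values, which gives the low Acot3 equal weight. When each mouse was left out it lay from -0.19 to -0.12, that of the cytosolic members from -0.22 to -0.15 and that of the mitochondrial members from -0.13 to 0.18. No paired analysis was possible because the labels give no number shared between the groups. Depth limits Acot5 and Acot10, at 13 and 0 reads over the WT mice, more than the members, the lowest of which, Acot3, had at least 178 reads per library.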

Other observations

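Of 10 thioesterase genes outside the members, 5 passed the filter of a mean of 1 FPKM, Acot6 among them, and 5 lay below it. Ppt1, the lysosomal palmitoyl-protein thioesterase, averaged 34.9 ± 2.03 FPKM in the WT mice (KO mice 32.8 FPKM), and its relative Ppt2 at 27.2 ± 4.10 and 33.4 ± 6.39 FPKM (limma adjusted p = 0.86). Them6 was at 18.2 ± 1.42 and 18.9 ± 2.90 FPKM, and Them4, a mitochondrial thioesterase, at 5.81 ± 0.195 and 5.61 ± 0.646 FPKM. Of the 5 such genes tested, 0 passed by limma or voom. At an unadjusted p under 0.05, 1, Acot6, was lower, beside 2.47% of all genes. Baat, which conjugates bile acids in liver, ranged from 0.473 to 0.709 FPKM in WT mice and from 0.224 to 0.748 in KO mice. Acot10, a relative of Acot9, had 0 reads over the WT mice and 2 over the KO mice, Them5 had 1 and 2, and Olah was at 0 in all 8 mice.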
